A study of Mus musculus with 18 samples.

Results

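The genes described here encode 10 enzymes and cofactors that write, copy or remove DNA methylation or the Polycomb mark H3K27 methylation: Dnmt1, Uhrf1, Hells, Dnmt3a, Dnmt3b, Tet1, Tet2, Tet3, Ezh1 and Ezh2. They were taken by name from a deposited table of read counts for 54838 genes, and all 10 had a row and passed the filter on low counts. After removal of ribosomal RNA, total RNA of 6 culture conditions was sequenced, with 3 replicates each and 18 libraries in all. The starting cells were neurospheres (NSPs), clusters of neural stem cells growing in suspension, taken from the ventricular zone of wild type C57BL/6J embryos at E14 and kept proliferating in EGF at 20 ng/ml. The other cultures were moved to medium with 10% serum, which drives differentiation towards astrocytes, for 24 h or 72 h without TNF, for 24 h or 72 h with TNF at 50 ng/ml, or for 1 week without TNF. TNF is an inflammatory cytokine, and cultures without it are called normal conditions. Each primary culture came from a single brain, and the labels do not say whether the replicates of a condition were separate cultures, so p-values measure only the spread between these samples.

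DNA methylation in mammals is copied at each round of replication and can also be set or removed without it. Dnmt1 is the maintenance methyltransferase, Uhrf1 recognises hemimethylated DNA behind the replication fork and recruits Dnmt1, and Hells (Lsh) is a chromatin remodeler needed for normal methylation. Dnmt3a and Dnmt3b are the de novo methyltransferases, and the TET enzymes oxidise methylcytosine as the first step of its removal. Ezh2 and its paralog Ezh1 are the alternative catalytic subunits of Polycomb repressive complex PRC2, which methylates H3K27 and keeps developmental genes silent. In the developing brain, the loss of DNA methylation at astrocyte genes such as Gfap is known to accompany the switch from neuron to astrocyte production, and Ezh2 is known to act in the timing of that switch.

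On the mm10 (GRCm38) assembly, GENCODE M21 places Dnmt1 at chr9:20907209-20959888, Uhrf1 at chr17:56303321-56323486, Hells at chr19:38930915-38971051, Dnmt3a at chr12:3806007-3914443 and Dnmt3b at chr2:153649450-153687730. Tet1 lies at chr10:62804570-62908996, Tet2 at chr3:133463679-133545139, Tet3 at chr6:83362373-83459084, Ezh1 at chr11:101191115-101226463 and Ezh2 at chr6:47530139-47595341. Exons of Dnmt3a, Tet2 and Ezh2 overlap a gene on the opposite strand (Dnmt3aos, Gm42567 and Gm26625). The strand setting of the counting is not given in the sources used here. Dnmt3aos had 15 to 51 counts per library against 2829 to 4643 for Dnmt3a, Gm42567 had at most 5 counts and Gm26625 had 10 to 76 counts against 216 to 2342 for Ezh2. These ranges are over all libraries and not matched by library. They show what was counted under the partner genes, and not how many reads fit both genes of a pair.

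Total counts ranged from 12509693 to 22549627 per library with a median of 16794798. NSP replicate 1 stood apart from the other NSP replicates in the genes followed here, and the main counts and folds against NSPs are also given without it. Genes that mark proliferation moved with the conditions: the summed level of 21 replication genes was 1442 to 3464 CPM (counts relative to library size, scaled by TMM factors) in NSPs, highest in replicate 1, and 287 to 413 CPM in the differentiated libraries. Of the cell type markers, the 7 microglia markers summed to at most 3.95 CPM and the 6 endothelial markers to at most 7.6 CPM in any library. Fibroblast and mural cell markers rose from 4.49 to 11.1 CPM in NSPs to 402 to 496 CPM at 24 h, almost all of it Acta2, while Lum had no counts in any library. The mural marker Rgs5 was also higher than in NSPs, 20.3-fold at 24 h and 48.6-fold at 24 h with TNF. Col3a1 was 3.47-fold higher than in NSPs at 24 h with TNF, with a log2 difference of -0.32 (SE 0.49) at 24 h without it. The 9 astrocyte markers summed to 2849 to 8319 CPM and did not move as a block: 3 rose and 1 fell at 24 h, 3 rose and 3 fell at 72 h, and 0 rose and 5 fell at 1 week by edgeR. Gfap, the classical astrocyte filament gene, had a mean of 27.1 CPM in NSPs, 2429 CPM at 72 h and 63.3 CPM at 1 week, while S100b, Aldoc and Slc1a3 were lower at 72 h (1.54-fold, 2.03-fold and 1.39-fold). Sums of some other marker lists were lower beside the falling members. Oligodendrocyte lineage markers summed to 1059 to 1364 CPM in NSPs, 375 to 455 CPM at 24 h and 81.9 to 91.5 CPM at 72 h, and neural stem cell markers to 3760 to 4977, 2100 to 2529 and 1296 to 1884 CPM, although Pax6 was 2.02-fold higher at 24 h and Prom1 5.45-fold higher at 72 h. Neuron markers summed to 1616 to 2091 CPM in NSPs, 1615 to 1797 CPM at 24 h and 1572 to 1625 CPM at 72 h, while Dcx (8.07-fold), Snap25 (3.33-fold), Tubb3 (2.75-fold) and Rbfox3 (2.04-fold) were lower at 72 h. With TNF at 72 h the oligodendrocyte lineage genes Olig2 (1.84-fold) and Cspg4 (4.05-fold) were higher than without it. In bulk RNA, fewer cells of a type and less RNA per cell cannot be told apart, and the part that cell makeup has in the results was not tested.

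Promoter sequences were searched for the E2F motif, since E2F factors are known to switch on genes for DNA replication and the members include replication-linked genes. RefSeq promoters on GRCm38.p6, each 300 bases long with 250 before the start and 50 after it, held 15 starts of the 10 members. The letters searched were TTTCCCGC, TTTGCCGC, TTTCGCGC and TTTGGCGC on either strand, where a match on one strand may overlap one on the other and each promoter was counted once. They were found in 744 of 32851 promoters (2.26%), or in 704 of 27025 genes with a promoter (2.6%), in promoters of Dnmt1, Uhrf1, Hells and Ezh2, and in none of the promoters of the other 6 members. The 30 bases around each match are shown on the strand of the gene, because the genes with a match are the 4 whose counts fell most in differentiation; the capitals mark the motif, reversed and complemented in the first Dnmt1 window.
Dnmt1, chr9:20952824-20952853, minus strand: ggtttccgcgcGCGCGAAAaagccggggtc
Dnmt1, chr9:20952574-20952603, minus strand: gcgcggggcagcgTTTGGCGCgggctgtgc
Uhrf1, chr17:56304117-56304146, plus strand: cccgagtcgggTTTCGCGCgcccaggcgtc
Hells, chr19:38930917-38930946, plus strand: gaccaccgggtTTTCCCGCgaaagagaagc
Ezh2, chr6:47595009-47595038, minus strand: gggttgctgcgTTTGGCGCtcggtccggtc
The windows of Dnmt1, Hells and Ezh2 overlap an annotated exon with untranslated sequence in at least 1 transcript of the gene, and the Uhrf1 window lies in an intron of the 2 Uhrf1 transcripts that span it. A match describes the letters and is not evidence of binding. The letters CCAAT, searched in the same way, were in promoters of 4 of the 10 members (Dnmt1, Uhrf1, Tet3 and Ezh2) and in 37.4% of all promoters. Among the replication genes with a RefSeq promoter, 7 of 17 held the motif (Mcm3, Mcm5, Mcm6, Mcm7, Cdc6, Cdt1 and Lig1), against 1 of 12 mitosis genes (Cdk1), 2 of 9 PRC2 partner genes (Suz12 and Phf19), and 0 of 12 methylation partners, 0 of 14 PRC1 genes and 0 of 4 H3K27 demethylase and deubiquitinase genes.

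The first comparison asked how the members changed as NSPs differentiated under normal conditions. At 24 h, 8 of the 10 members were called, meaning that edgeR's quasi-likelihood test, fitted and adjusted over all genes, gave them a p-value under 0.05. Dnmt1, Uhrf1, Hells and Ezh2 fell, and Ezh1, Dnmt3a, Tet1 and Tet2 rose. The background was high, since 52.7% of the 20067 genes tested were called between 24 h and NSPs. At 72 h, 6 members were called (2 higher, 4 lower) where 55.3% of all genes were, and at 1 week again 6 (2 higher, 4 lower) against 58.6%. The share of members called at 72 h and 1 week was therefore close to that of all genes. Without NSP replicate 1 the counts were 8 at 24 h, 5 at 72 h and 5 at 1 week, with the same 4 genes lower each time. In that fit 49.6%, 51.6% and 56.0% of all genes were called at these times. Scaling by library totals alone moved the median log2 fold change of all genes from 0.06 to 0.14 at 24 h and from 0.06 to 0.17 at 1 week, and changes are given relative to the TMM scale.

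Of the maintenance genes, Uhrf1 and Hells had the largest falls of all members at 24 h, 72 h and 1 week. Uhrf1 stood at 217, 86.3 and 91.9 CPM in the NSP replicates. It was at 6.72, 8.1 and 7.73 CPM at 24 h, at 1.06, 0.919 and 1.15 CPM at 72 h, and at 0.618, 0.766 and 1.27 CPM at 1 week. Every differentiated library lay below every NSP library, and the 72 h and 1 week libraries rested on only 14 to 21 counts each. Uhrf1 was 17.5-fold lower at 24 h (log2 fold change -4.13, SE 0.39, edgeR adjusted p = 1.17e-07), 125-fold lower at 72 h (log2 -6.96, SE 0.48, adjusted p = 7.31e-10) and 154-fold lower at 1 week (log2 -7.26, SE 0.48, adjusted p = 4.32e-10). Without NSP replicate 1 these folds were 11.9, 84.8 and 104.

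Hells, the remodeler, followed at a smaller size. Its level was 137, 51.5 and 55.5 CPM in NSPs, 8.91, 9.88 and 8.63 CPM at 24 h, 3.78, 2.45 and 3.02 CPM at 72 h, and 4.06, 4.82 and 6.61 CPM at 1 week. All differentiated libraries were below all NSP libraries. The fall was 8.87-fold at 24 h (log2 -3.15, SE 0.32, adjusted p = 2.92e-07), 26.5-fold at 72 h (log2 -4.73, SE 0.35, adjusted p = 2.57e-09) and 15.9-fold at 1 week (log2 -3.99, SE 0.34, adjusted p = 1.09e-08), all by edgeR. Without NSP replicate 1 it was 5.86-fold, 17.5-fold and 10.5-fold.

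Dnmt1 kept a substantial level after its fall. It measured 409.6, 218 and 226 CPM in NSPs against 63.4, 68.1 and 71.8 CPM at 24 h, 42.3, 48.7 and 54.0 CPM at 72 h and 55.7, 48.1 and 53.7 CPM at 1 week. All differentiated libraries were below all NSP libraries, and the 72 h and 1 week libraries overlapped. Dnmt1 was 4.2-fold lower at 24 h (log2 -2.07, SE 0.2, edgeR adjusted p = 1.21e-07), 5.88-fold lower at 72 h and 5.41-fold lower at 1 week, or 3.28-fold, 4.6-fold and 4.23-fold without NSP replicate 1.

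**Figure D1:**
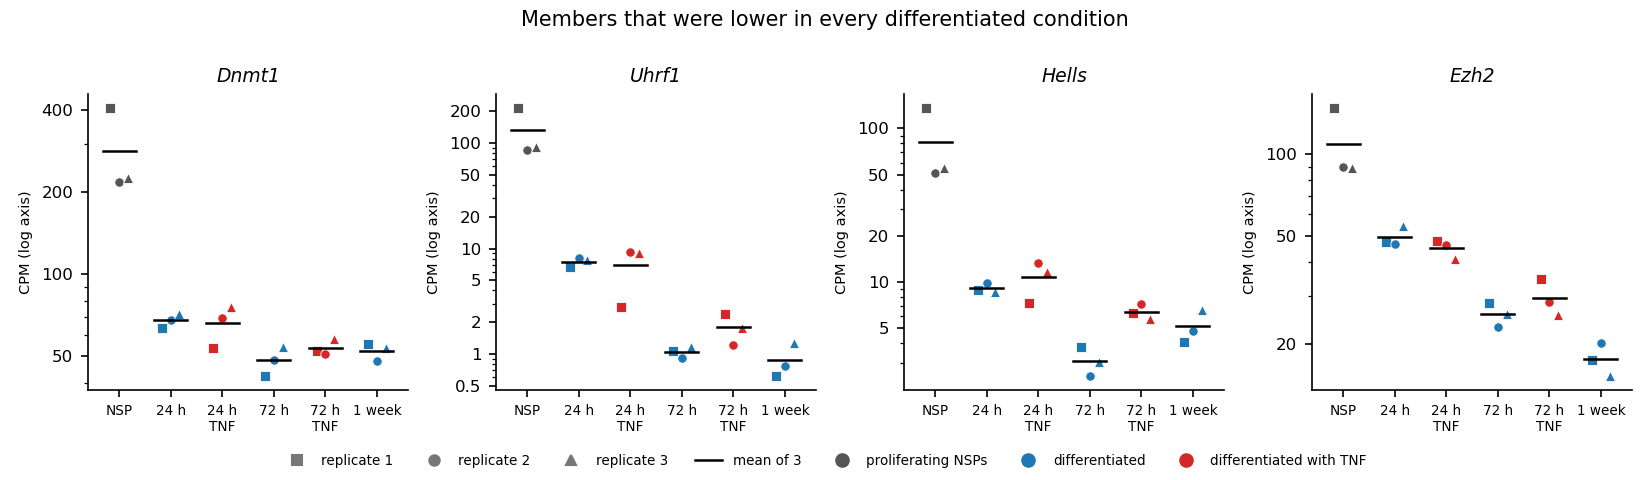
CPM of Dnmt1, Uhrf1, Hells and Ezh2 in each of the 18 libraries on log axes, by condition, with marker shapes for replicate numbers and a black bar for the mean of 3. NSP replicate 1 (square) is the highest NSP library in each panel, and all differentiated libraries lie below all NSP libraries; Uhrf1 goes from 86.3 CPM or more in NSPs to 1.27 CPM or less at 1 week.

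The de novo methyltransferases behaved differently from the maintenance genes. Dnmt3a was at 185, 190.3 and 199 CPM in NSPs, at 267, 245 and 280.4 CPM at 24 h, at 249.4, 241 and 218 CPM at 72 h and at 205, 228 and 199 CPM at 1 week. The rise was 1.38-fold at 24 h (log2 0.46, SE 0.11, edgeR adjusted p = 0.00131) and 1.23-fold at 72 h (log2 0.3, SE 0.11, adjusted p = 0.0207). At 1 week the log2 difference from NSPs was 0.14 (SE 0.11, adjusted p = 0.274), and the lowest 1 week library was barely above the highest NSP library. The call at 72 h was lost when any of 4 libraries was left out, with adjusted p-values of 0.0504 and 0.0562 without NSP replicate 1 or 2 and 0.0684 and 0.0624 without 72 h replicate 1 or 2, and with no filter on low counts (0.18).

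Dnmt3b was far less abundant, at 4.55 to 7.86 CPM in NSPs and 4.77 to 8.71 CPM in the other libraries, or 64 to 130 counts. The ranges overlapped in every comparison and it was called in none of them. Its log2 difference from NSPs was 0.27 (SE 0.24) at 24 h, 0.02 (SE 0.24) at 72 h and 0.19 (SE 0.23) at 1 week. A p-value that misses the threshold does not show that its level stayed the same.

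Of the TET enzymes, Tet2 and Tet1 rose at 24 h. Tet2 was at 92.7, 124 and 124 CPM in NSPs and at 202, 173 and 210.1 CPM at 24 h, a 1.72-fold rise without overlap (log2 0.78, SE 0.17, edgeR adjusted p = 0.000719). Later libraries spread from 119 to 177 CPM at 72 h and from 132 to 181 CPM at 1 week. The log2 difference from NSPs was 0.36 (SE 0.16, adjusted p = 0.0732) at 72 h and 0.4 (SE 0.16, adjusted p = 0.0455) at 1 week. Without 72 h replicate 3 the 72 h difference was called (0.0263). The 1 week call was lost without NSP replicate 1 (adjusted p = 0.19) or 1 week replicate 2 (0.258), and in DESeq2 (0.0595).

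Tet1 peaked at 24 h. Its level was 87.1, 71.1 and 67.7 CPM in NSPs, 111, 95.1 and 114 CPM at 24 h, 81.8, 70.2 and 64.5 CPM at 72 h and 77.1, 96.6 and 70.0 CPM at 1 week. Only the 24 h libraries all lay above the NSP libraries, by 1.41-fold (log2 0.5, SE 0.15, edgeR adjusted p = 0.00955). The log2 differences at 72 h and 1 week were -0.06 (SE 0.15) and 0.11 (SE 0.15), not called. Tet3 was called in no comparison; its libraries spread from 110 to 121 CPM in NSPs and from 71.3 to 137 CPM in the differentiated conditions, with log2 differences from NSPs of -0.16, -0.2 and -0.3 (SE 0.24 each).

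The PRC2 catalytic subunits moved in opposite directions. Ezh2 went from 148, 89.3 and 88.9 CPM in NSPs to 47.3, 46.5 and 54.4 CPM at 24 h, 28.3, 23.0 and 25.7 CPM at 72 h and 17.3, 20.1 and 15.2 CPM at 1 week. The 4 conditions did not overlap at any step. The fall from NSPs was 2.21-fold (log2 -1.14, SE 0.18, edgeR adjusted p = 3.96e-05), then 4.25-fold (log2 -2.09, SE 0.18) and 6.2-fold (log2 -2.63, SE 0.19). Without NSP replicate 1 it was 1.81-fold, 3.49-fold and 5.08-fold.

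Ezh1 rose over the same times. It was at 11.9, 24.0 and 22.6 CPM in NSPs, with replicate 1 the lowest, at 38.9, 37.6 and 40.7 CPM at 24 h, at 48.1, 49.4 and 45.0 CPM at 72 h and at 51.1, 51.6 and 48.9 CPM at 1 week. No differentiated library overlapped an NSP library. The rise was 2.0-fold at 24 h (log2 1.0, SE 0.18, edgeR adjusted p = 0.000157), 2.43-fold at 72 h and 2.59-fold at 1 week, or 1.67-fold, 2.03-fold and 2.16-fold without NSP replicate 1.

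**Figure D2:**
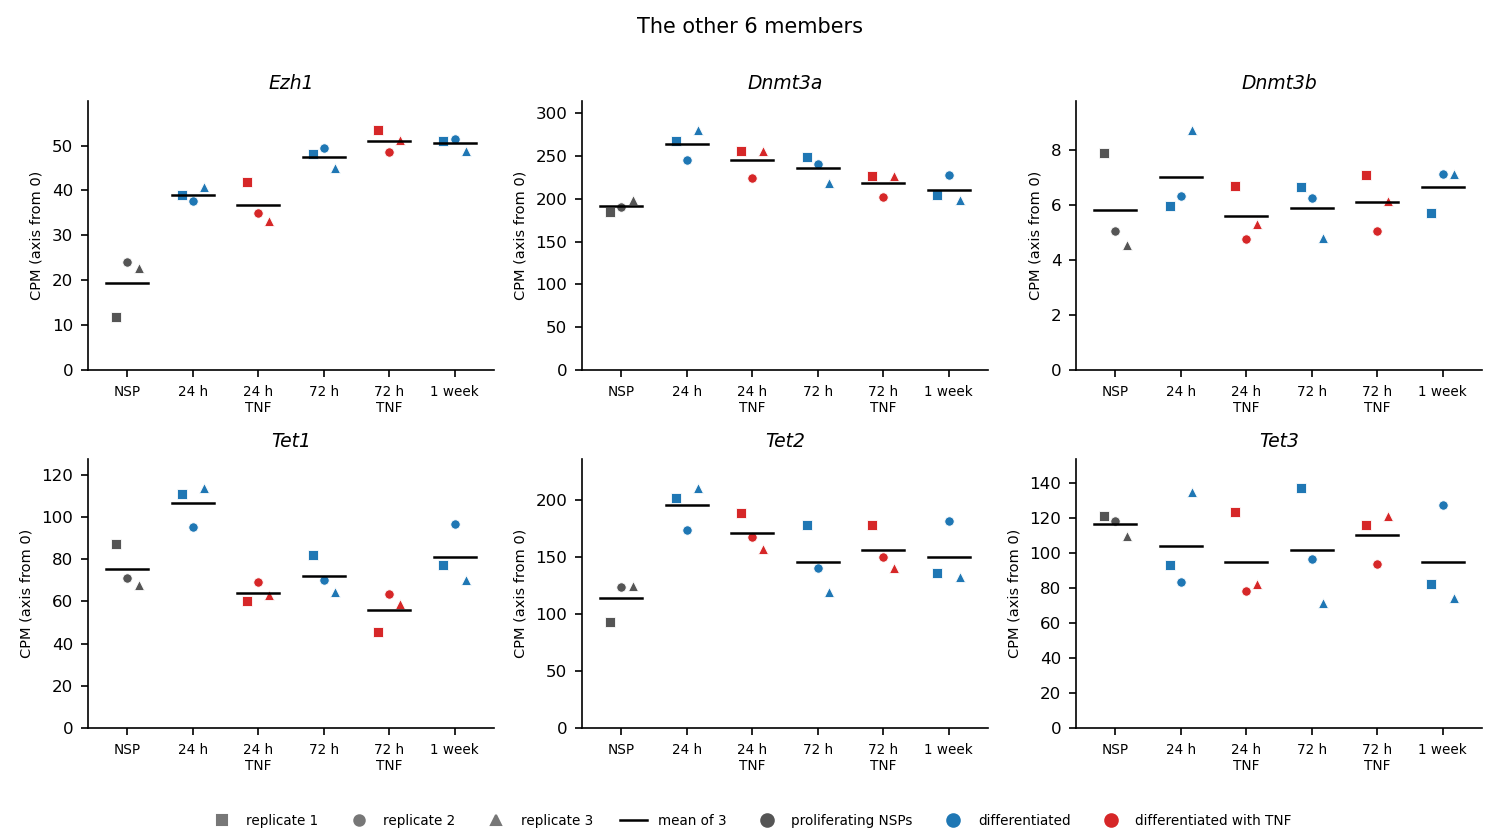
CPM of Ezh1, Dnmt3a, Dnmt3b, Tet1, Tet2 and Tet3 in each of the 18 libraries on linear axes from 0, by condition, with a black bar for the mean of 3. Ezh1 lies at 24.0 CPM or less in NSPs and at 33.2 CPM or more elsewhere, Tet1 has its highest mean at 24 h without TNF, and Dnmt3b and Tet3 overlap between all conditions.

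The ratio of Ezh1 to Ezh2 within a library does not depend on scaling between libraries. On CPM, the log2 ratio was -3.63, -1.89 and -1.97 in NSPs, -0.28, -0.31 and -0.42 at 24 h, 0.77, 1.1 and 0.81 at 72 h and 1.55, 1.35 and 1.68 at 1 week. Ezh2 was thus the more abundant of the pair in all NSP and 24 h libraries and Ezh1 in all 72 h and 1 week libraries. Per kilobase of annotated exon, where the genes can be compared, the linear ratio ran from 0.0717 to 0.241 in NSPs, 0.672 to 0.74 at 24 h, 1.53 to 1.93 at 72 h and 2.3 to 2.89 at 1 week. The mean log2 ratio rose from -2.5 ± 0.98 (SD, n = 3) in NSPs to -0.33 ± 0.07 at 24 h, 0.89 ± 0.18 at 72 h and 1.53 ± 0.16 at 1 week. Each differentiated group was fully separated from NSPs, with an exact two-sided permutation p of 0.1, the smallest that 3 against 3 libraries can give. The differences from NSPs in mean log2 ratio were 2.16, 3.39 and 4.03, or 1.6, 2.82 and 3.46 without NSP replicate 1.

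**Figure D3:**
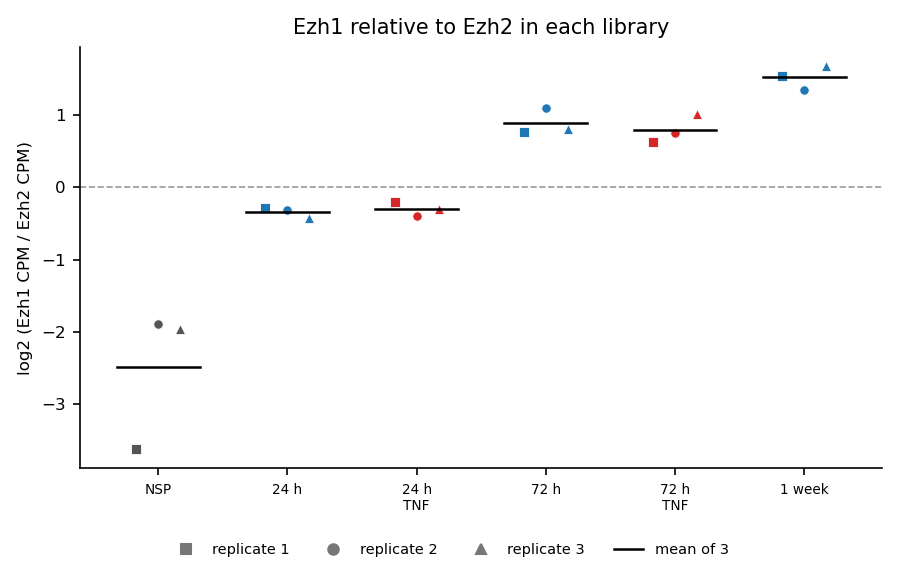
The log2 ratio of Ezh1 CPM to Ezh2 CPM in each of the 18 libraries by condition, with the dashed line at equal CPM and the black bar at the mean of 3. The ratio is below 0 in all NSP and 24 h libraries, with NSP replicate 1 lowest at -3.63, and above 0 in all 72 h and 1 week libraries, with or without TNF (red).

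From 24 h to 72 h, 4 members were called, all lower, where 24.8% of all genes were called. Uhrf1 fell a further 7.15-fold (log2 -2.84, SE 0.47, edgeR adjusted p = 0.000214), Hells 2.98-fold (log2 -1.58, SE 0.34, adjusted p = 0.00223), Ezh2 1.93-fold (log2 -0.95, SE 0.18, adjusted p = 0.000762) and Tet1 1.48-fold (log2 -0.56, SE 0.15, adjusted p = 0.00988). The Tet1 call was lost without 24 h replicate 3 (adjusted p = 0.0521) or 72 h replicate 3 (0.0549), and in a replicate block with that library unpaired (0.0702). Dnmt1 was lower in all 72 h libraries than in all 24 h libraries, with a log2 difference of -0.49 (SE 0.19) that missed the threshold (adjusted p = 0.0738) but passed when only these groups were fitted (0.00763), with library totals (0.0498), with no filter on low counts (0.0215) and with a minimum of 10 counts per library (0.0485). Tet2 had a log2 difference of -0.42 (SE 0.16, adjusted p = 0.0694), and was called without 72 h replicate 1 (0.0182).

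From 72 h to 1 week, edgeR and DESeq2 called 0 members each, 2 had an unadjusted p under 0.05, and 6.63% of all genes were called by edgeR. Those 2 were Ezh2, with a log2 difference of -0.54 (SE 0.18, adjusted p = 0.0865), and Hells, with 0.74 (SE 0.35, adjusted p = 0.257). Both were separated between the groups without overlap. The Hells value had the opposite sign to its earlier fall.

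The order of the members by level changed with differentiation. Per kilobase of exon, Dnmt1 (38.6 ± 14.7 CPM per kb, SD, n = 3) and Uhrf1 (30.9 ± 17.3) led in NSPs, followed by Ezh2 (16.3 ± 5.13), with overlap between neighbours in this order. Dnmt3a (11.5 ± 0.418) and Hells (11.3 ± 6.69) overlapped in the middle, and Dnmt3b (1.14 ± 0.35) was last. The overlap of Hells with Dnmt3a came from NSP replicate 1, where Hells was at 137 CPM against 51.5 and 55.5 CPM in the others. In all 5 differentiated conditions Dnmt3a was first, with every library above every library of the next member, Tet2, and its mean level ran from 12.7 to 15.9 CPM per kb. Uhrf1 dropped to the bottom at 72 h and 1 week (0.245 ± 0.0278 and 0.207 ± 0.0798 CPM per kb), just below Hells and Dnmt3b, and these 3 were separated from each other in both conditions. Dnmt1, Ezh1 and Tet3 lay close together at 72 h, at 6.55, 6.38 and 6.08 CPM per kb, and neighbours among them overlapped.

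**Figure D4:**
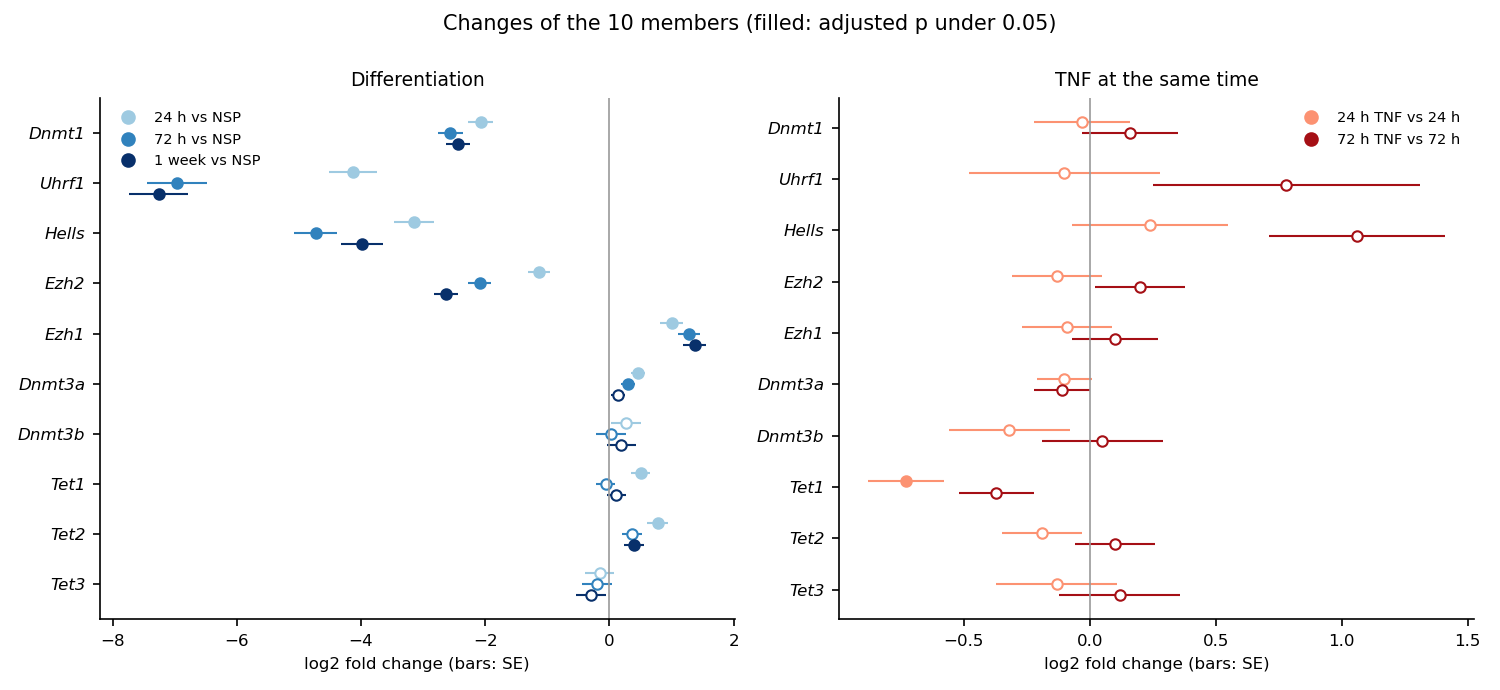
The log2 fold changes of the 10 members with standard errors, left for 24 h, 72 h and 1 week against NSPs and right for TNF against normal conditions at 24 h and 72 h, with filled points for edgeR adjusted p-values under 0.05 and different horizontal scales. Uhrf1 reaches -7.26 on the left, while on the right the only filled point is Tet1 at 24 h (-0.73).

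Genes for DNA replication and mitosis fell with differentiation too, and the 4 falling members were set against them in each library. All 21 replication genes were lower at 24 h, at 72 h and at 1 week than in NSPs (median log2 fold change -3.0, -2.91 and -3.54), as were all 15 mitosis genes (median -4.35, -5.99 and -6.36), against a median of 0.06, 0.05 and 0.06 over all genes. Examples at 24 h were Pcna, the replication clamp (5.3-fold lower), Mcm2 of the replicative helicase (8.36-fold) and Mki67 (11.5-fold). The same counts held without NSP replicate 1, with replication medians of -2.43, -2.51 and -3.0. Relative to the mean log2 CPM of the replication genes in the same library, Ezh2 was higher in differentiated libraries than in NSPs, by 1.7 at 24 h, 1.18 at 72 h and 0.73 at 1 week. Dnmt1 was higher by 0.79, 0.73 and 0.95. On this scale, set by the mean of the list and not by each of its genes, the differentiated libraries did not overlap with NSPs for either gene.

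Uhrf1 fell more than the mean of the replication genes, by 1.18 at 24 h, 3.46 at 72 h and 3.63 at 1 week on the log2 scale. Hells stayed near that mean at 24 h (difference -0.19) and lay lower at 72 h (-1.31) and 1 week (-0.5). The 3 NSP libraries lay close together on this relative scale for Uhrf1 (0.99 to 1.09) and Hells (0.25 to 0.42). Set against the mitosis genes the picture shifted, since those fell further. Relative to them Uhrf1 differed from NSPs by 0.16, -0.46 and -0.88 at the 3 times and Hells by 1.15, 1.69 and 2.25, so the direction for Hells at each time and for Uhrf1 at 24 h depends on the reference list.

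**Figure D5:**
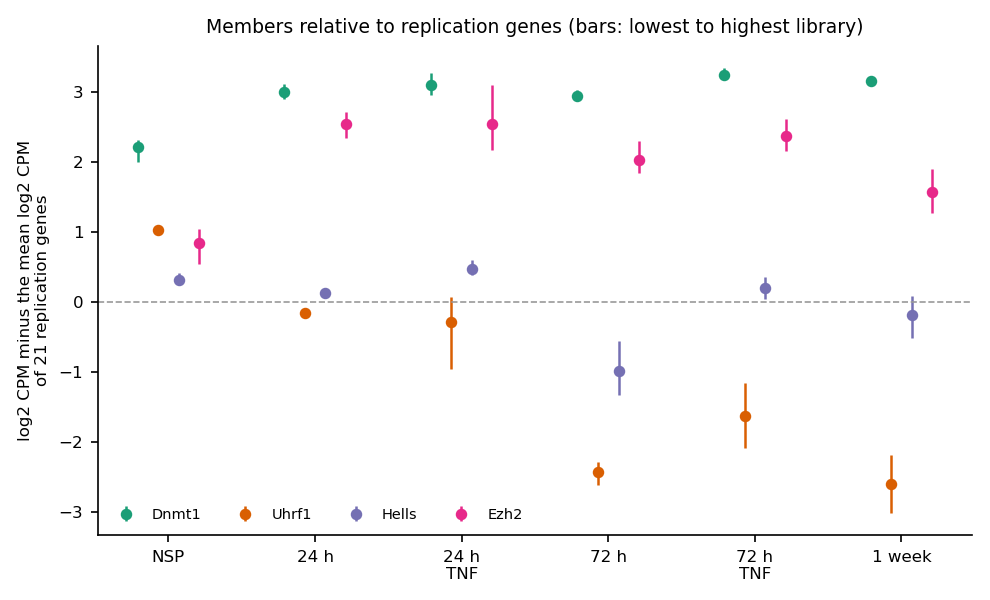
Dnmt1, Uhrf1, Hells and Ezh2 as log2 CPM minus the mean log2 CPM of 21 replication genes in the same library, with points for the mean of 3 and bars from the lowest to the highest library. Ezh2 rises from 0.85 in NSPs to 2.55 at 24 h, while Uhrf1 goes from 1.03 in NSPs to -2.43 at 72 h.

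The second comparison asked how TNF changed the members at a given time. At 24 h, 1 member was called, where 3.5% of all genes were. Tet1 was at 60.3, 69.0 and 63.1 CPM with TNF against 111, 95.1 and 114 CPM without it. All 3 TNF libraries lay below all libraries without TNF, and below or within the range of NSPs. The fall was 1.66-fold (log2 -0.73, SE 0.15, edgeR adjusted p = 0.0087), and the call held in DESeq2 and with each library left out.

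The other 9 members overlapped between 24 h with and without TNF. The 4 genes that fell from NSPs differed little: the log2 difference was -0.03 (SE 0.19) for Dnmt1, -0.1 (SE 0.38) for Uhrf1, 0.24 (SE 0.31) for Hells and -0.13 (SE 0.18) for Ezh2. The spread of Uhrf1 came from replicate 1 with TNF, at 2.77 CPM against 9.31 and 9.07 CPM in the others. That library was also the lowest of its condition in the summed mitosis genes, at 77.6 CPM.

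At 72 h, edgeR called 0 members and DESeq2 called 1, 2 had an unadjusted p under 0.05, and 9.56% of all genes were called by edgeR. Of all these calls 45.5% were higher with TNF, or 59.0% when libraries were scaled by totals alone. Hells was at 6.3, 7.19 and 5.75 CPM with TNF against 3.78, 2.45 and 3.02 CPM without it, with no overlap. Its 2.09-fold difference (log2 1.06, SE 0.35) missed the threshold in edgeR (adjusted p = 0.0605) and passed in DESeq2 (0.0218). It also passed in edgeR without 72 h replicate 1 (0.0496), with library totals (0.0419), with no filter on low counts (6.2e-05) and when only these groups were fitted (0.0263). Beside it, the median log2 difference of the replication genes was -0.17 and that of the mitosis genes 0.19, with 0 of 21 and 0 of 15 called by edgeR. Tet1 was again lower with TNF in all libraries, at 45.4, 63.5 and 58.6 CPM against 81.8, 70.2 and 64.5 CPM, but the log2 difference of -0.37 (SE 0.15) was not called (adjusted p = 0.135). Uhrf1 had a log2 difference of 0.78 (SE 0.53) on 14 to 43 counts per library.

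The difference between the TNF effects at 72 h and at 24 h was tested as an interaction, and 0 members were called by edgeR or DESeq2, with 0 at an unadjusted p under 0.05 and 0.458% of all genes called by edgeR. For Tet1 it was 0.36 (SE 0.21, adjusted p = 0.592) and for Hells 0.83 (SE 0.47, adjusted p = 0.573), so neither effect was shown to differ between the times. The Ezh1 to Ezh2 ratio was likewise close with and without TNF. The mean log2 ratio was -0.3 ± 0.1 with TNF at 24 h, a difference of 0.03 (exact permutation p = 0.7), and 0.8 ± 0.19 with TNF at 72 h, a difference of -0.09 (p = 0.5, exact).

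Cells differentiated in TNF were also compared with NSPs and with each other. These comparisons share their NSP libraries with those above. At 24 h with TNF, 7 members were called against NSPs (3 higher, 4 lower) with 54.5% of all genes called, and at 72 h with TNF 7 (2 higher, 5 lower) with 61.9% called. The lower members were Dnmt1, Uhrf1, Hells and Ezh2 at both times and Tet1 at 72 h (log2 -0.43, SE 0.15, edgeR adjusted p = 0.019). The higher ones were Ezh1 and Tet2 at both times and Dnmt3a at 24 h, whose call was lost with no filter on low counts (0.106). Uhrf1 was 18.7-fold and 72.8-fold lower than in NSPs, and Ezh2 2.41-fold and 3.69-fold. Without NSP replicate 1 these folds were 12.7 and 49.5 for Uhrf1 and 1.98 and 3.03 for Ezh2, and the calls of Tet1 and Tet2 at 72 h with TNF were lost (adjusted p = 0.0878 and 0.111), as they were without replicate 1 of that condition (0.155 and 0.0879).

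From 24 h to 72 h in TNF, 2 members were called with 13.3% of all genes called. Uhrf1 fell 3.89-fold (log2 -1.96, SE 0.43, edgeR adjusted p = 0.0054), a call that was lost when only these 2 groups were fitted (0.0559). Ezh2 fell 1.53-fold (log2 -0.61, SE 0.18, adjusted p = 0.0294), a call that was lost without 24 h TNF replicate 1 (0.0732) or 2 (0.105) or 72 h TNF replicate 2 (0.0852) or 3 (0.127). Hells was lower without overlap but not called (log2 -0.75, SE 0.32, adjusted p = 0.132), and Ezh1 was higher without overlap, with a log2 difference of 0.48 (SE 0.18, adjusted p = 0.0816, or 0.0354 without 24 h TNF replicate 1).

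The partners of these enzymes gave a mixed picture. Among 10 PRC2 partner genes, 7 fell and 1 rose at 24 h (median log2 -0.68) and 8 fell and 1 rose at 72 h, where 52.7% and 55.3% of all genes were called. The core subunits Eed and Suz12, without which PRC2 is not stable, were 1.71-fold and 1.58-fold lower at 24 h and 1.78-fold and 1.75-fold lower at 72 h (edgeR adjusted p from 4.56e-06 to 0.00013). Their fall was smaller than that of Ezh2 at 72 h. Phf19 and Phf1, Tudor-domain proteins that bring PRC2 to chromatin, went in opposite directions: Phf19 rose from a mean of 9.59 to 36.4 CPM at 24 h (3.82-fold) and Phf1 fell from 8.36 to 1.91 CPM (4.41-fold). Jarid2, a cofactor of PRC2, was 1.72-fold lower at 72 h.

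PRC1, the complex that ubiquitinates histone H2A at Polycomb sites, has several chromobox subunits that read H3K27 methylation. Of 19 PRC1 genes, 4 rose and 11 fell at 24 h, and 6 rose and 10 fell at 72 h, beside the same 52.7% and 55.3% of all genes. Without NSP replicate 1 the numbers were 4 and 9, and 5 and 9, beside 49.6% and 51.6% of all genes. The chromobox gene Cbx7 rose from a mean of 10.8 CPM in NSPs to 21.8 CPM at 24 h and 47.6 CPM at 72 h, while Cbx2 fell from 22.48 to 9.1 and 11.6 CPM. Both changes were called at both times (edgeR adjusted p from 4.66e-08 to 0.000359). Pcgf2, a ring finger subunit, was 3.69-fold higher at 24 h. Of 6 genes for H3K27 demethylases and the H2A deubiquitinase complex, 3 rose at 24 h, among them the demethylases Kdm6a (1.36-fold) and Kdm6b (2.81-fold, with a wide spread of 42.7 ± 26.9 CPM, SD, n = 3), and 0 fell by edgeR, a share called near the 52.7% of all genes.

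Among 16 genes that read DNA methylation, take part in its removal or work with the methyltransferases, 15 could be tested. Of these, 5 rose and 4 fell at 24 h and 8 rose and 3 fell at 72 h. The 9 called at 24 h are near the 52.7% of all genes, and at 72 h 55.3% of all genes were called. Tdg, the glycosylase that excises oxidised methylcytosine made by the TET enzymes, fell 1.44-fold at 24 h and 2.46-fold at 72 h. Gadd45b, linked to active demethylation, rose 7.68-fold at 24 h from a mean of 3.5 to 26.98 CPM. Cxxc5, a CpG-binding partner of Tet2, rose 3.26-fold at 24 h from 57.3 to 186.6 CPM. Mbd2, a reader of methylated DNA, had a log2 difference at 24 h of -0.18 (SE 0.14) that was not called. Dnmt3l, a cofactor of Dnmt3a in germ cells, had at most 1 count in any library.

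With TNF at 24 h, 1 of 15 methylation partners, 1 of 10 PRC2 partners, 1 of 19 PRC1 genes and 0 of 6 H3K27 demethylase and deubiquitinase genes were called by edgeR, against 3.5% of all genes. At 72 h the numbers were 1, 1, 5 and 0, against 9.56%. At 24 h TNF raised Gadd45a (1.97-fold, edgeR adjusted p = 0.0412), the PRC2 cofactor Aebp2 (1.3-fold, 0.0448) and the PRC1 gene Pcgf5 (1.77-fold, 0.00069). At 72 h Aebp2 and Pcgf5 were again higher, by 1.48-fold and 1.45-fold, and Cbx2 (1.52-fold), Phc2 (1.45-fold) and Pcgf3 (1.29-fold) were higher too. Gadd45g (2.15-fold) and Pcgf1 (1.59-fold) were lower. At 72 h Cbx2 stood at a mean of 17.6 CPM with TNF and 11.6 CPM without it.

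Genes kept silent by these marks were read as a further description. Of 12 germline genes whose promoters are known to be silenced by DNA methylation in somatic cells, 9 had at most 3 counts in every library. Of the others, Sycp3 was 2.76-fold higher at 24 h than in NSPs at a mean of 2.11 CPM, and Taf7l rose from at most 0.0549 CPM in NSPs to a mean of 0.477 CPM, with at most 23 counts in any library. Of 41 Polycomb targets (39 Hox genes and the cell cycle inhibitors Cdkn2a and Cdkn2b), 32 had at most 3 counts in every library, and 9 could be tested. Of these, 1 rose and 1 fell at 24 h, 2 rose and 0 fell at 72 h, and 3 rose and 2 fell at 1 week by edgeR (median log2 -0.17, -0.09 and -0.17), where 52.7%, 55.3% and 58.6% of all genes were called. Without NSP replicate 1, 0 rose and 1 fell at 24 h, and 2 rose and 1 fell at 72 h, where 49.6% and 51.6% of all genes were called. Hoxa4 was 1.66-fold lower at 24 h (adjusted p = 0.0389). Cdkn2b rose 1.43-fold at 24 h and 2.18-fold at 72 h, from a mean of 6.84 to 14.9 CPM, with the 24 h call lost without NSP replicate 1, and TNF raised it by 1.9-fold at 24 h and 2.08-fold at 72 h (edgeR adjusted p = 0.0102 and 0.00131). Cdkn2a rose 1.74-fold at 72 h (adjusted p = 0.00373), with a log2 difference for TNF of 0.03 (SE 0.21) at that time.

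The genes most like each member across the 18 libraries were found by the root mean square difference of centred log2 CPM among 16448 genes with a mean of at least 1 CPM. For Uhrf1 they were Esco2, which acts in sister chromatid cohesion, Kif18b, a mitotic kinesin, and Aspm, a spindle pole protein (0.34, 0.37 and 0.39 on the log2 scale). For Hells they were Timeless and Cdc7, both of DNA replication, and Peg12 (0.29, 0.34 and 0.35). Zeb1, Hectd2 and Trim59 were closest to Ezh2 (0.2, 0.23 and 0.24), and Pask, Lsm2 and Rassf3 to Dnmt1 (0.13, 0.14 and 0.15). Closest were Gm15834, Scn2a and Wdr19 to Ezh1, Aff1 and Ago3 to Tet2, Zfp462, Cradd and Osbpl6 to Tet1, and Setd1a, Trak1 and Kmt2b to Tet3. Ammecr1l, Brf1 and Btrc were closest to Dnmt3a, and Nup214, Gm49163 and Zfp142 to Dnmt3b. Among the members themselves, Dnmt3a and Tet2 were the most alike (0.18) and Uhrf1 and Ezh1 the least (2.92).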

How the data were processed

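Stranded libraries from total RNA were sequenced for 18 samples, and RNA quality was given only as a range over all samples. The deposited table holds raw counts per gene, which the authors made with FastQC, Trim Galore, STAR, SAMtools and featureCounts on mm10, per the labels; versions and the strand setting of the counting are not given in the sources used here. Of its 54838 genes, 54809 had an entry in GENCODE M21, and 20067 passed edgeR's filterByExpr. The third 72 h column carried another replicate number than its label and was matched by its other suffix. Replicates differed by more than sampling noise, since chi-square over its degrees of freedom lay between 3.71 and 55.4, and each was counted on its own.

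Counts were scaled by TMM and tested in R 4.3.3 with edgeR 4.0.16 (glmQLFit and glmQLFTest) over all 18 libraries and 6 group means, with Benjamini-Hochberg adjustment over all genes and a threshold of 0.05. Log2 CPM used a prior count of 2. Scripts were tested on simulated data. DESeq2 1.42.0, other scalings and filters, fits of only the groups compared, a replicate block and leaving out each library were alternatives; a looser minimum, 5 counts summed over all libraries, was added after seeing the data. Total counts of 12509693 to 22549627 set the depth, and the root common dispersion was 0.18. The replicate numbers paired samples only between 72 h and 24 h with TNF, where the deviations of same-numbered libraries correlated at 0.291, 0.255 and 0.266.

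Named genes were all members, up to 6 called genes of each list with the largest change, a set of named partners, and the 3 genes most like each member; a few genes that the rule names are not reported here. The members and lists were chosen with earlier results of these data known.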

Additional observations from a re-analysis of the deposited data

Results flagged for a closer look

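S100b, a calcium-binding protein gene used as an astrocyte marker, was the single gene among the members and the gene lists whose TNF effect differed between the times by a test of the difference itself, where 92 of all 20067 genes tested were called. The TNF effect at 72 h minus that at 24 h was -1.32 on the log2 scale (SE 0.26, edgeR adjusted p = 0.0309). TNF lowered S100b 3.11-fold at 72 h, from 75.9 ± 19.4 to 24.4 ± 4.48 CPM (SD, n = 3), while the log2 difference at 24 h was -0.32 (SE 0.18) and was not called. The members of the methylation and Polycomb group had no such difference that passed the test, and groups of 3 libraries were too small for the check of single outlying libraries.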

How the results depend on the processing

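No called member changed direction under any alternative run. With a log2 fold change of at least 1 required, 4 members were called at 24 h against NSPs, 4 at 24 h with TNF against NSPs, 2 from 24 h to 72 h, 1 from 24 h to 72 h in TNF and 0 for TNF at 24 h. With no filter on low counts, 2 were called from 72 h to 1 week, 4 from 24 h to 72 h in TNF and 1 for TNF at 72 h, and Dnmt3a lost its calls against NSPs at 72 h (0.18) and at 24 h with TNF (0.106). Fitting only the groups compared gave 1, 0 and 1 for the same comparisons, with the calls of Uhrf1 and Ezh2 in TNF lost (0.0559 and 0.0576), and DESeq2 and library totals gave 1 each for TNF at 72 h. Leaving out 1 library at a time gave 1 to 2 members from 24 h to 72 h in TNF and 0 to 1 for TNF at 72 h. For TNF at 72 h, DESeq2 called 5.13% of all genes higher and 6.31% lower, and library totals 5.33% and 3.7%. Shares of all genes are not given here for the other runs in this paragraph. Their counts show only how the calls of the members moved, and are not to be read against the background. The replicate block ended 1 member call, Tet2 at 1 week against NSPs (log2 0.39, edgeR adjusted p = 0.0569), and kept the side of the threshold of 109 of 110 values. With 72 h replicate 3 unpaired in the block, whose column carried another number, 2 member calls ended, Tet2 at 1 week (0.0518) and Tet1 from 24 h to 72 h (0.0702). With mitosis genes in place of replication genes as the reference, the difference from NSPs at 24 h, 72 h and 1 week was 2.13, 3.73 and 3.7 for Dnmt1, 3.04, 4.18 and 3.48 for Ezh2, -0.46 and -0.88 for Uhrf1 at the later times, and of opposite sign for Uhrf1 at 24 h (0.16) and for Hells (1.15, 1.69 and 2.25); the mitosis genes fell further than the replication genes. DESeq2 called 2 PRC1 genes for TNF at 24 h and 1 replication and 1 mitosis gene for TNF at 72 h, and library totals called 1 mitosis gene there. Uhrf1 rested on 14 to 21 counts per library at 72 h and 1 week, which limits its fold there, and 3 libraries a group cannot give an exact p below 0.1.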
